A study of Mus musculus with 18 samples.

Results

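The genes described here are Gpr34 and 9 of the purinergic receptors, which respond to extracellular nucleotides and adenosine. They are P2ry2, P2ry6, P2ry12, P2ry13, P2ry14, P2rx4, P2rx7, Adora2a and Adora2b, taken by gene name from a table of 21734 protein-coding genes, and all 10 were among the 11357 genes with enough counts to be tested. The set was chosen by gene name and on the counts of Gpr34, which had been seen to fall with LPS across the 6 groups, so its levels with and without LPS are given as a description with no test. The response of wild-type cells to LPS is a description for the other 9 genes as well.

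RNA was sequenced from bone marrow-derived macrophages (BMDMs), cells grown for 8 to 9 days with M-CSF at 10 ng/ml from the marrow of mice 6 to 7 months old. The mice were of 129/B6 mix strain and were wild type (WT), lacked miR-146a (KO), or carried the non-seed swap allele 3′F (3F), in which miR-146a keeps its seed but has bases of its 3′ part exchanged. Cultures of each genotype received fresh medium without LPS (resting) or with 1 ng/ml LPS and were harvested after 16 h. There were 3 libraries in each of the 6 groups, the labels give 3 mice of each genotype, and no label ties a library to a mouse or names a batch. The targeted microRNA is not among the protein-coding genes and was not measured here, so the genotypes were not checked on it.

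P2Y receptors are G protein-coupled receptors for nucleotides, P2X receptors are cation channels opened by ATP, and adenosine receptors respond to the nucleoside that remains once ATP has been stripped of its phosphates. Gpr34 responds to lysophosphatidylserine and belongs by sequence to the same branch of receptors as P2ry12, P2ry13 and P2ry14. In the brain, Gpr34, P2ry12 and P2ry13 are known as genes of resting microglia, and in macrophages ATP acting through P2rx7 is a classical trigger of the inflammasome.

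miR-146a pairs with its targets mainly through its seed, bases 2 to 8, which are in capitals in the mature WT sequence from RefSeq (GRCm38.p6, chr11:43374435-43374456, minus strand). The sites found in the 3′ UTRs of the 10 genes are shown with it, because they are where the deleted microRNA could pair directly, and the matched bases are in capitals.

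mmu-miR-146a-5p: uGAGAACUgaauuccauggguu
P2ry14, chr3:59114242-59114271, minus strand: tgggtcacatgAGTTCTCtcttcaacctct
P2rx7, chr5:122681600-122681629, plus strand: ggtggtgaaggtGTTCTCtcccgtccacgt
P2rx7, chr5:122682947-122682976, plus strand: ctggagagccatGTTCTCtgacttccacat

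P2ry14 held 1 match to the whole seed (AGTTCTC) in its longest annotated 3′ UTR, and P2rx7 held 2 shorter matches of 6 bases (GTTCTC). The other 8 genes held no match of these letters in that stretch. Among 11261 tested genes with an annotated 3′ UTR, 35.7% held at least a match of 6 bases and 22.2% one of 7 bases or longer. Positions are those of GENCODE M21 on GRCm38, the build mm10 to which the authors aligned the reads.

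Several of these genes are neighbours. P2ry12 (chr3:59216272-59262871), P2ry13 (chr3:59207892-59210882) and P2ry14 (chr3:59113855-59153618) lie on the minus strand, inside Med12l on the other strand, with gaps of 5.4 kb between P2ry12 and P2ry13 and 54.3 kb between P2ry13 and P2ry14. P2rx7 (chr5:122643911-122691432) lies 16.1 kb from P2rx4 (chr5:122707544-122729738), both on the plus strand. P2ry6 (chr7:100937630-100974649) lies 21.9 kb from P2ry2 (chr7:100996568-101012866), both on the minus strand. Gpr34 (chrX:13632089-13640858, plus strand) lies inside Cask on the other strand. Adora2a (chr10:75316877-75334784) and Adora2b (chr11:62248984-62266453) are on the plus strand. The authors counted reads by strand, which separates these genes from Cask and Med12l.

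Total counts ran from 4071084 to 19818043 per library. Levels are in CPM, the counts scaled to a common library size after TMM normalisation, and means carry the SD over 3 libraries. A total-count scale in place of TMM would shift the LPS responses by −0.28 to −0.20 on the log2 scale and KO against WT by −0.11 at rest and −0.14 with LPS, and changes are given relative to the TMM scale. Resting KO replicate 3 stood apart, since its log2 CPM correlated better with the mean of the KO libraries with LPS (r = 0.958) than with the other resting KO libraries (r = 0.951). Resting 3F replicate 3 had the lowest total count and also correlated with its own group at r = 0.951, where all libraries other than these 2 reached at least 0.981. For some of the tested differences, but not all, the value without 1 of these libraries or without both is also given. The 8 macrophage markers, Lyz2, Csf1r and Adgre1 among them, summed at rest to 32000 to 48100 CPM in WT, 60200 to 61700 in KO and 42600 to 62500 in 3F. With LPS they summed to 44800 to 59200 CPM in WT, 70000 to 87000 in KO and 49200 to 59600 in 3F, so KO lay above WT in both states. Most of the sum was Lyz2. Itgam went the other way, at 238 to 249 CPM in resting WT and 130 to 166 CPM in resting KO. T and NK cell markers summed to at most 1.17 CPM and B cell markers to at most 1.17 CPM. Neutrophil markers, mostly S100a8, summed to 14.9 to 23.4 CPM in resting WT and 33.0 to 40.8 CPM in WT with LPS, with Ly6g at 3 counts or fewer in every library, and reached 53.3 CPM at rest in KO, 66.5 CPM at rest in 3F and 67.0 CPM in KO with LPS, where they started at 38.7 CPM. Stromal and endothelial markers, nearly all Kdr, summed to 6.44 to 11.4 CPM in resting WT, 8.05 to 28.2 CPM in WT with LPS up to 34.4 CPM in resting KO and 22.8 to 26.4 CPM in KO with LPS. The part of these markers in the results was not tested. In bulk RNA, fewer cells that express a gene and less RNA per cell cannot be told apart.

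Gpr34 was present in resting macrophages and close to absent after LPS in all genotypes, while Adora2a did the opposite. In resting WT libraries Gpr34 stood at 26.9, 13.9 and 16.2 CPM, and with LPS at 1.05, 0.819 and 0.586 CPM. In 3F it stood at 13.4, 19.5 and 15.2 CPM at rest and at 0.513, 0.383 and 0.641 CPM with LPS. In KO it stood at 21.7, 24.5 and 1.68 CPM at rest and at 1.03, 0.797 and 0.927 CPM with LPS. Every resting library lay above every LPS library of its genotype, but resting KO replicate 3 reached only 15 counts and lay near the LPS libraries. Over summed counts, Gpr34 was 23.9-fold lower with LPS in WT (95% interval 17 to 34.5, from 761 and 35 counts). It was 19.5-fold lower in KO (14.2 to 27.7) and 34.0-fold lower in 3F (21.6 to 56.9), and these exact intervals cover counting error only. The fitted log2 fold change was −4.52 ± 0.66 (SE) in WT, −4.13 ± 0.65 in KO and −5.03 ± 0.74 in 3F. Without resting KO replicate 3 the KO value was −4.64.

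**Figure D1:**
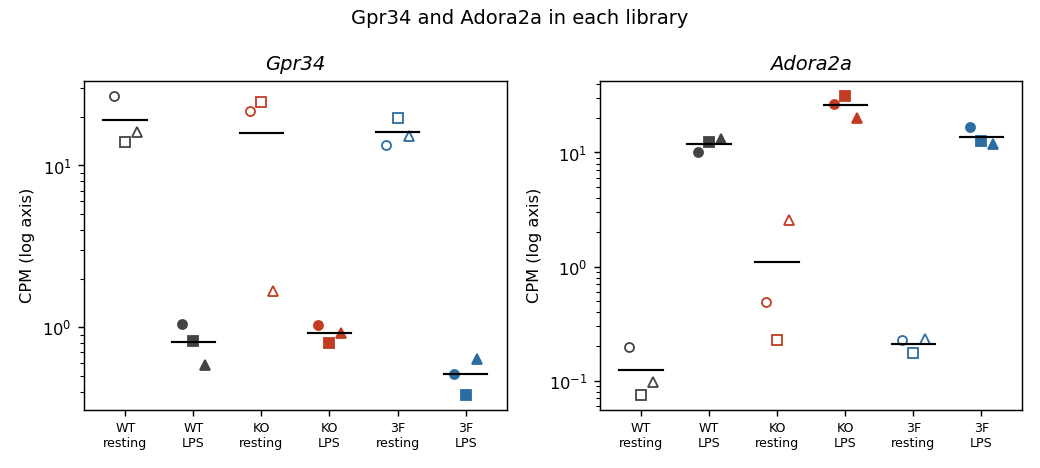
CPM (log axis) of Gpr34 and Adora2a in each of the 18 libraries. Open symbols are resting and filled symbols LPS libraries, circles, squares and triangles are replicates 1, 2 and 3, and lines are group means of 3 libraries. The open red triangle, resting KO replicate 3, lies at 1.68 CPM for Gpr34 and 2.58 CPM for Adora2a, away from the other resting KO libraries.

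The genes whose log2 CPM followed Gpr34 most closely over the 18 libraries, out of tested genes with an average log2 CPM of at least 1, were Pnpla7, Mxd4, Slc26a11, Wwp1 and Aph1c, with Pearson r of 0.979, 0.978, 0.978, 0.976 and 0.970. Pnpla7, which encodes a lysophospholipase, was also in the list of enzymes of lysophospholipid metabolism described further on. Its mean was 139 ± 30.8 CPM in resting WT and 47.5 ± 5.14 CPM with LPS (SD, n = 3). In deviations from the group means, r was 0.877 for Pnpla7, 0.908 for Mxd4, 0.977 for Slc26a11, 0.839 for Wwp1 and 0.827 for Aph1c, and resting KO replicate 3 was low in all 5 genes. These correlations describe libraries that share groups and depth.

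Adora2a encodes the Gs-coupled adenosine receptor that raises cyclic AMP and is known to restrain inflammatory macrophages. It had 3, 1 and 1 counts in the resting WT libraries and 10.1, 12.4 and 13.2 CPM with LPS. Resting 3F libraries had 4, 3 and 1 counts, and 3F libraries with LPS 16.9, 12.7 and 11.8 CPM. Resting KO libraries stood at 0.494, 0.229 and 2.58 CPM (8, 3 and 23 counts), and KO libraries with LPS at 26.5, 31.3 and 20.3 CPM. No LPS library overlapped the resting libraries of its genotype. The ratio of summed counts was 92.4 in WT (95% interval 39.3 to 286), 29.2 in KO (20.8 to 42.4) and 68.5 in 3F (34.5 to 159). In edgeR's quasi-likelihood test over all genes, Adora2a rose in KO by 4.77 ± 0.44 on the log2 scale (adjusted p = 9.88e-07) and in 3F by 6.02 ± 0.57 (adjusted p = 1.39e-06). The interaction, the KO response minus the WT response, was −1.67 ± 0.93 and was not called (adjusted p = 1). Without resting KO replicate 3, the KO response of Adora2a was 6.08 and the interaction −0.35.

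Adora2b, the second Gs-coupled adenosine receptor, needs more adenosine to be activated. In WT it stood at 1.58, 2.11 and 4.25 CPM at rest and at 10.9, 9.76 and 10.3 CPM with LPS. In KO it stood at 5.13, 5.81 and 4.04 CPM at rest and at 7.92, 7.89 and 7.20 CPM with LPS. In 3F it stood at 3.10, 3.77 and 7.73 CPM at rest and at 14.2, 7.29 and 11.3 CPM with LPS. The WT and KO groups were each separated by LPS, whereas resting 3F replicate 3 lay above the lowest 3F library with LPS. Adora2b rose in 3F by 1.31 ± 0.34 (adjusted p = 0.00837). The log2 fold change was 2.0 ± 0.35 in WT and 0.61 ± 0.33 in KO (adjusted p = 0.187 in KO). The KO response minus the WT response was −1.39 ± 0.47 and was not called (adjusted p = 0.691).

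P2rx4 encodes an ATP-gated channel found largely on lysosomes. In WT it stood at 126, 142 and 149 CPM at rest and at 249, 186 and 283 CPM with LPS. In KO it stood at 224, 216 and 263 CPM at rest and at 307, 335 and 305 CPM with LPS. In 3F it stood at 153, 164 and 112 CPM at rest and at 232, 283 and 256 CPM with LPS. All LPS libraries lay above the resting libraries of their genotype. P2rx4 rose in 3F by 0.84 ± 0.16 (adjusted p = 0.000882). Its log2 fold change was 0.79 ± 0.16 in WT and 0.43 ± 0.16 in KO, where the adjusted p was 0.0521. Without resting KO replicate 3 the KO value was 0.52 with an adjusted p of 0.0259.

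P2ry14 encodes a receptor for UDP-glucose. It stood at 4.60, 6.02 and 4.83 CPM in resting WT and at 15, 8.46 and 22.1 CPM with LPS. In 3F it stood at 4.35, 3.77 and 3.51 CPM at rest and at 9.01, 12.9 and 12.1 CPM with LPS. In KO it stood at 10.2, 7.11 and 34.6 CPM at rest and at 20.4, 22.2 and 22.2 CPM with LPS, so that resting KO replicate 3 had the highest P2ry14 of all libraries. LPS separated the groups in WT and in 3F. P2ry14 rose in 3F by 1.52 ± 0.48 (adjusted p = 0.0248), a call that was lost without 3F replicate 2 or 3 of either state, at adjusted p values of 0.053 to 0.0771. Its log2 fold change was 1.56 ± 0.45 in WT. In KO it was 0.35 ± 0.42 (adjusted p = 0.579), and without resting KO replicate 3 it was 1.31 (adjusted p = 0.00229).

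The remaining 5 receptors were not called with LPS in KO or 3F. P2rx7, the ATP-gated channel that opens at high ATP, ran from 28.0 to 38.8 CPM over all 18 libraries. P2ry2, a receptor for ATP and UTP, had log2 fold changes of 0.42 ± 0.24 in WT, 0.28 ± 0.23 in KO and 0.48 ± 0.24 in 3F (adjusted p = 0.399 in KO and 0.134 in 3F). P2ry6, a receptor for UDP that is known to promote phagocytosis, had log2 fold changes of 0.11 ± 0.27 in WT, −0.25 ± 0.27 in KO and 0.57 ± 0.27 in 3F (adjusted p = 0.538 in KO and 0.122 in 3F). P2ry12, the ADP receptor that steers the processes of microglia, had log2 fold changes of −0.55 ± 0.29 in WT, −0.21 ± 0.28 in KO and −0.33 ± 0.31 in 3F (adjusted p = 0.623 in KO and 0.436 in 3F). P2ry13, also an ADP receptor, had log2 fold changes of −0.22 ± 0.24, 0.28 ± 0.22 and −0.37 ± 0.25 in the same order (adjusted p = 0.391 in KO and 0.263 in 3F). On the total-count scale P2ry6 in WT, P2ry2 and P2ry13 in KO, and P2rx7 in all genotypes changed sign. In 3F limma-voom called P2ry12 (−0.65, adjusted p = 0.0101) and P2ry13 (−0.59, 0.0207) lower with LPS, and edgeR called P2ry12 lower without the 2 libraries that stood apart (−0.64, 0.0479).

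**Figure D2:**
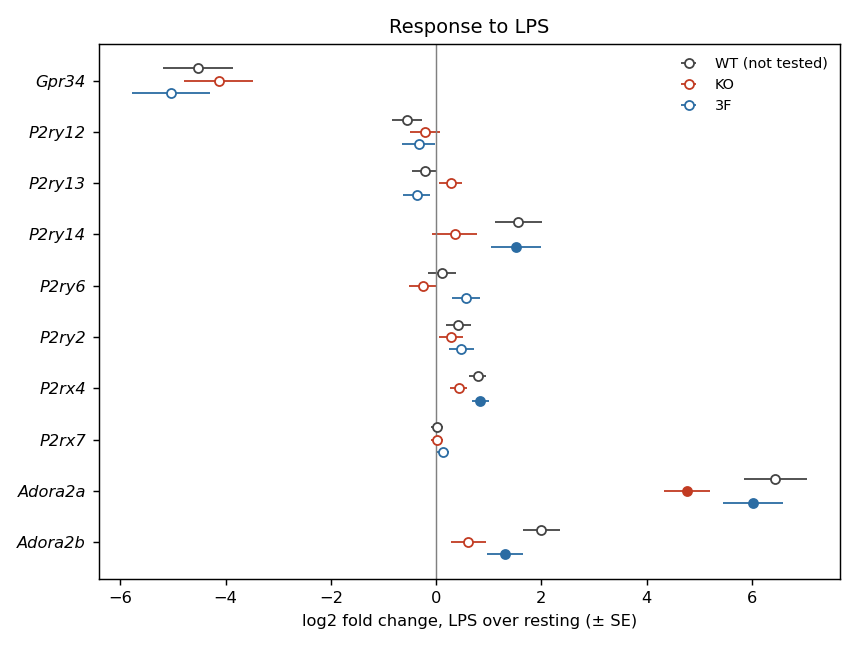
Log2 fold change with LPS (± SE from the edgeR fit) for the 10 genes in WT, KO and 3F. Filled points passed an adjusted p of 0.05, open points did not or were not tested, as holds for WT and for Gpr34. Gpr34 lies between −5.03 and −4.13 and Adora2a between 4.77 and 6.44, and the 3F response was called for Adora2a, Adora2b, P2rx4 and P2ry14.

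In all, 1 of the 9 tested receptors was called in the LPS response of KO, where 14.3% of all tested genes were called higher and 12.6% lower. In 3F, 4 of 9 were called, all higher, where 17.2% of all genes were called higher and 14% lower. The median log2 fold change of the 10 genes was 0.26 in WT, 0.28 in KO and 0.52 in 3F, and that of all tested genes was 0.02, 0.02 and −0.01. No receptor was called in the interaction of KO with LPS, in which 0.00881% of all genes were called by edgeR and 560 genes had an unadjusted p under 0.05. No receptor was called in the interaction of 3F with LPS either, with 0% of all genes called and 203 genes at an unadjusted p under 0.05. DESeq2 and limma-voom called no receptor in either interaction.

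The comparison of KO with WT asks what loss of miR-146a changes in these receptors. In resting cells P2rx4, P2ry14 and Adora2a were higher in KO than in WT, and 3 of 10 genes were called beside 9.4% of all genes. P2rx4 differed by 0.75 ± 0.16 on the log2 scale (adjusted p = 0.00823), from a mean of 139 ± 11.8 CPM in WT to 234 ± 25.01 CPM in KO (SD, n = 3), with every KO library above every WT library. This call was kept when any single library was left out, at 0.66 to 0.81. P2ry14 differed by 1.71 ± 0.46 (adjusted p = 0.0271) and Adora2a by 2.80 ± 0.83 (adjusted p = 0.0451). Both differences were largest in resting KO replicate 3. Without that library P2ry14 differed by 0.75 (adjusted p = 0.157) and Adora2a by 1.48 (adjusted p = 0.2). Leaving out any 1 resting WT library also ended both calls, at adjusted p values of 0.0722 to 0.0991 for P2ry14 and 0.0943 to 0.147 for Adora2a. With so few counts in resting cells, the ratio of summed Adora2a counts in KO over WT was 6.92, with a counting interval of 2.69 to 22.7.

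Resting Gpr34 did not differ detectably between KO and WT (−0.23 ± 0.50, adjusted p = 0.843). This comparison shares libraries with those in which Gpr34 was picked, and the value turned to 0.28 without resting KO replicate 3 and to 0.11 without resting WT replicate 1. Adora2b was higher by 0.97 ± 0.36 (adjusted p = 0.105), P2ry6 by 0.53 ± 0.27 (0.251), P2ry12 by 0.49 ± 0.29 (0.325), P2ry13 by 0.42 ± 0.23 (0.29), P2ry2 by 0.40 ± 0.24 (0.334) and P2rx7 by 0.21 ± 0.11 (0.259), none of which passed the test. Adora2b passed it without resting WT replicate 3, at 1.45 (adjusted p = 0.0288). Without the 2 libraries that stood apart, P2rx4 was called together with Adora2b (1.12, adjusted p = 0.0344), P2ry2 (0.66, 0.00834) and P2rx7 (0.30, 0.0478). The median over the 10 genes was 0.51 at rest and 0.33 with LPS, and over all tested genes 0.02 and 0.01.

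With LPS, P2ry13 was higher in KO than in WT, and 1 of 10 genes was called beside 4.79% of all genes. P2ry13 stood at 4.82, 3.41 and 5.79 CPM in WT with LPS and at 7.44, 10.2 and 8.92 CPM in KO. The groups did not overlap, while the summed neutrophil markers of these KO libraries reached beyond those of WT, and the difference was 0.92 ± 0.23 (adjusted p = 0.0315). The call was lost without WT replicate 1 or 2 or KO replicate 2 or 3 with LPS, at log2 differences of 0.74 to 0.94 and adjusted p values of 0.0726 to 0.173. P2ry12 stood at 7.75, 5.39 and 12.1 CPM in WT and at 15.5, 14.6 and 14.6 CPM in KO, again without overlap, and differed by 0.83 ± 0.29 (adjusted p = 0.117). It passed the test without WT replicate 3 with LPS, at 1.18 (adjusted p = 0.0421). Adora2a differed by 1.13 ± 0.33 (adjusted p = 0.0627), with every KO library at or above 20.3 CPM and every WT library at or below 13.2 CPM. DESeq2 called this difference of Adora2a at an adjusted p of 0.048, and over all alternatives the adjusted p ran from 0.000159 to 0.262.

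The other 7 receptors were not called between KO and WT with LPS. Among them every KO library lay above every WT library for P2rx4 and P2rx7, and below every WT library for Adora2b. How many of all genes were separated between these groups was not computed. P2rx4 differed by 0.40 ± 0.16 (adjusted p = 0.173), P2ry14 by 0.51 ± 0.42 (0.596), P2ry2 by 0.26 ± 0.23 (0.629), P2rx7 by 0.21 ± 0.11 (0.316), P2ry6 by 0.18 ± 0.27 (0.803), Gpr34 by 0.16 ± 0.84 (0.955) and Adora2b by −0.42 ± 0.31 (0.542). For Gpr34 the 8 to 15 counts per WT or KO library with LPS leave a wide interval, −1.48 to 1.81, so that smaller changes in either direction were not detectable at this depth.

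**Figure D3:**
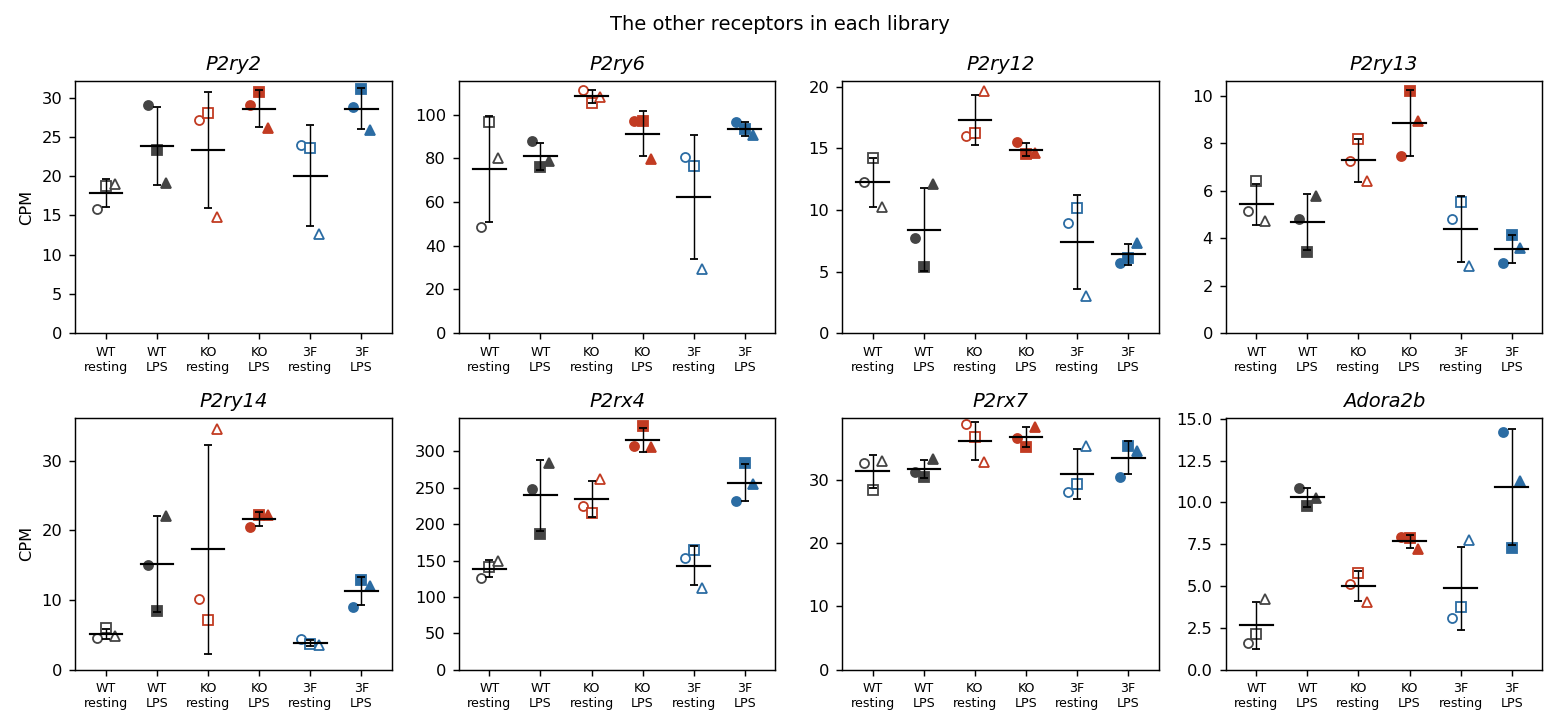
CPM of the other 8 receptors in each of the 18 libraries, on axes that start at 0. Open symbols are resting and filled symbols LPS libraries, symbol shapes are replicates 1 (circle), 2 (square) and 3 (triangle), and bars are the mean ± SD of 3 libraries. P2rx4 and P2ry12 lie higher in KO than in WT in each state, and resting 3F replicate 3 is the lowest library for P2ry2, P2ry6, P2ry12, P2ry13, P2ry14 and P2rx4.

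The comparison of 3F with WT asks whether miR-146a with its seed but an altered 3′ part keeps these receptors at their WT levels. None of the 10 genes was called in either state. In resting cells edgeR called 0% of all genes, with 557 at an unadjusted p under 0.05, and with LPS it called 0.00881%, with 106 at an unadjusted p under 0.05. P2ry12 was −0.62 ± 0.30 at rest (adjusted p = 0.843, interval −1.21 to −0.04) and −0.41 ± 0.30 with LPS (adjusted p = 1). In resting cells every 3F library of P2ry12 lay below every WT library, at 8.92, 10.2 and 3.04 CPM against 12.3, 14.2 and 10.3 CPM, and without resting 3F replicate 3 the difference was −0.36. P2ry13 was −0.24 ± 0.24 at rest and −0.39 ± 0.24 with LPS, and P2ry14 −0.38 ± 0.50 and −0.42 ± 0.43 (adjusted p = 0.86, 1, 0.886 and 1). Adora2b went the other way at rest, at 0.77 ± 0.37 (adjusted p = 0.843, interval 0.04 to 1.5), with overlapping libraries, and was 0.08 ± 0.31 with LPS. Of the 10 genes, 4 had a positive difference at rest and 6 with LPS.

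Against 3F, KO cells were higher in P2rx4, P2ry12 and P2ry14 at rest and in P2ry12 and P2ry13 with LPS. At rest 3 of 10 genes were called beside 12.9% of all genes, and with LPS 2 of 10 beside 3.88%. These comparisons share the KO libraries with those of KO and WT. At rest P2rx4 differed by 0.71 ± 0.16 (adjusted p = 0.0112), P2ry12 by 1.12 ± 0.29 (0.0234) and P2ry14 by 2.1 ± 0.48 (0.012). Without resting KO replicate 3 and resting 3F replicate 3 all 3 calls were lost, at 0.49 for P2rx4 (adjusted p = 0.0604), 0.78 for P2ry12 (0.0694) and 1.12 for P2ry14 (0.0625). They were lost too when the resting KO and 3F libraries were fitted alone (adjusted p = 0.159, 0.207 and 0.175). P2rx7, at 0.24 ± 0.11 (adjusted p = 0.144) with all libraries, was the 1 receptor called without the 2 libraries (0.42, adjusted p = 0.026). The call of P2ry12 was also lost without resting KO replicate 3 alone (1.00, adjusted p = 0.0586), whereas P2ry14 fell to 1.14 and kept its call (adjusted p = 0.0386). P2ry6 (0.78 ± 0.27), P2ry13 (0.66 ± 0.24) and Adora2a (2.16 ± 0.76) were not called at rest, with adjusted p values of 0.0671, 0.0733 and 0.07.

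With LPS P2ry13 stood at 2.93, 4.11 and 3.59 CPM in 3F and at least at 7.44 CPM in KO, a difference of 1.31 ± 0.24 (adjusted p = 0.00615). It was called without any single library, at 1.19 to 1.45. P2ry12 stood at 5.72, 6.13 and 7.31 CPM in 3F and at least at 14.6 CPM in KO, a difference of 1.23 ± 0.30 (adjusted p = 0.0296). Its call was lost when any 1 of the 6 libraries was left out, at 1.16 to 1.33 with adjusted p values of 0.0687 to 0.131, and was kept without the 2 resting libraries that stood apart (adjusted p = 0.00214). Adora2a (0.91 ± 0.33), P2ry14 (0.93 ± 0.43) and P2rx4 (0.30 ± 0.16) also had every KO library above every 3F library but were not called, with adjusted p values of 0.151, 0.28 and 0.371. The same held for Gpr34 (0.91 ± 0.94, adjusted p = 0.712), which had only 5 to 15 counts in these libraries. The share of all genes separated in this way was not computed.

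**Figure D4:**
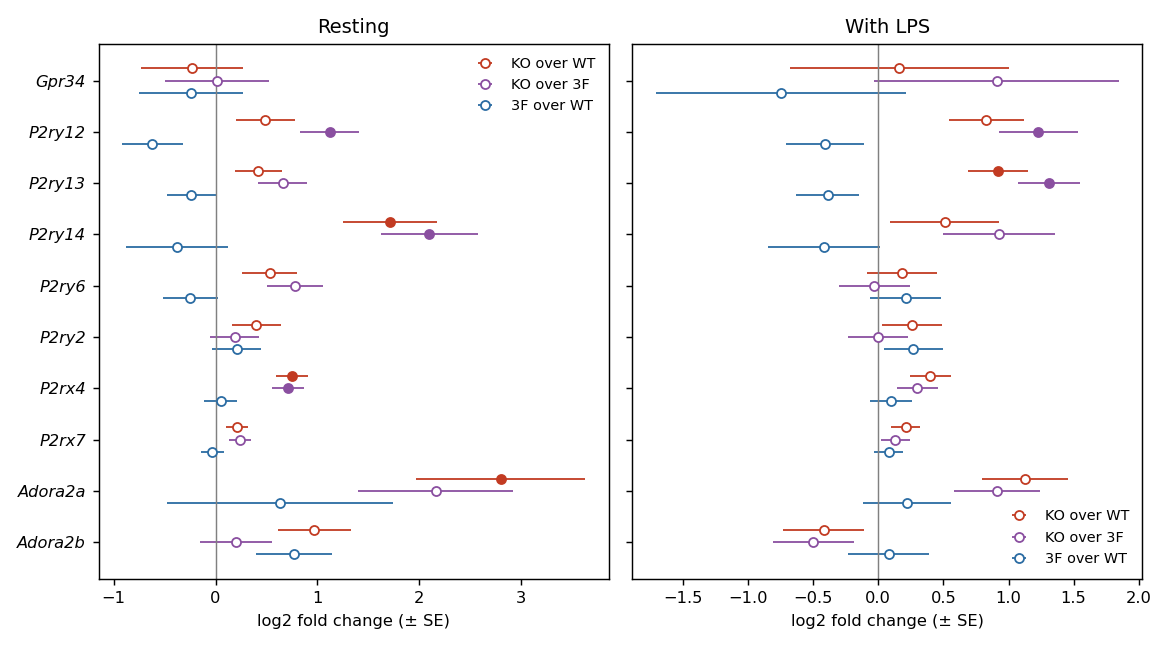
Log2 fold change (± SE from the edgeR fit) between genotypes for the 10 genes, at rest on the left and with LPS on the right. Filled points passed an adjusted p of 0.05. P2ry14 and P2rx4 were called higher in resting KO than in both WT and 3F, P2ry13 was called higher in KO than in both with LPS, and no point of 3F over WT is filled.

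P2ry12 and P2ry13, the closest neighbours on chromosome 3, varied together over the 18 libraries (Pearson r of log2 CPM 0.89, and 0.81 in deviations from the group means). P2ry14, next in the row, followed them less closely, with r of 0.44 for P2ry12 and 0.45 for P2ry13, and of the 3 genes it was the 1 called with LPS, in 3F. Among the 10 genes its r was highest for P2rx4, at 0.90. P2rx4, on another chromosome, had r of 0.36 with P2ry12 and 0.45 with P2ry13, but 0.81 and 0.75 in deviations. The neighbours P2rx4 and P2rx7 had r of 0.47, and −0.26 in deviations. Resting 3F replicate 3 was the lowest library for P2ry12, P2ry13 and P2rx4, and r without it is not given here. The points share groups, depth and scaling, so these values describe the libraries. The 150 bases upstream of the annotated starts of P2ry12 (chr3:59262986-59263135) and P2ry13 (chr3:59210883-59211032) are given on the minus strand from RefSeq (GRCm38.p6), because these 2 genes varied together. Capitals mark AGGAAGT, a form of the site of the myeloid factor PU.1.

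P2ry12: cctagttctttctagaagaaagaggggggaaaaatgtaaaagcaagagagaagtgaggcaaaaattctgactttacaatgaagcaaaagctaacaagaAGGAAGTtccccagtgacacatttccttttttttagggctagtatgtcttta
P2ry13: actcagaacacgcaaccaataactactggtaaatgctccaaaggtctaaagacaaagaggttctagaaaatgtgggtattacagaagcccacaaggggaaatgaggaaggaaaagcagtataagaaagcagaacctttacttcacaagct

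Windows from 250 bases before to 50 after a start were found for 7 of the 10 genes, 12 windows in all, and those of Gpr34, P2ry6 and Adora2a were not analysed here. Both strands were searched. AGGAAGT was found upstream of P2ry12 and in a window of P2rx7, and in 9.35% of 32851 promoters. TGANTCA, a loose form of the AP-1 site, was found in 2 windows of P2ry14 and 1 of P2rx7, and in 7.81% of promoters. The letters were TGACTCA and TGAATCA for P2ry14 and TGAGTCA for P2rx7. The AP-1 site has G or C as its middle base, which TGAATCA lacks. Forms of the NF-kB site (0.41% of promoters) and of the interferon response site (3.44%) and TGACGTCA, the cyclic AMP response site (1.79%), were not found in the 12 windows. A match of letters is not a measured binding site.

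**Figure D5:**
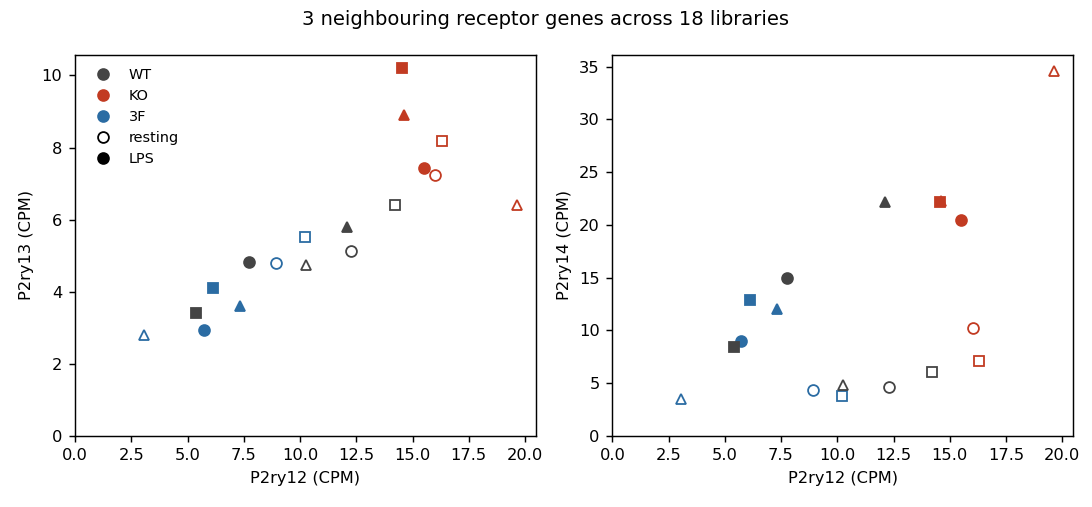
CPM of P2ry13 (left) and P2ry14 (right) against P2ry12 in each of the 18 libraries, with open symbols for resting and filled symbols for LPS libraries and replicates 1, 2 and 3 as circles, squares and triangles. P2ry12 and P2ry13 rise together (r = 0.89 of log2 CPM), and the highest P2ry14, 34.6 CPM, is in resting KO replicate 3, an open red triangle.

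Per kb of exon, P2rx4 and P2ry6 were the highest of the 10 genes in every group, and the order below them depended on LPS. With the deposited gene lengths, resting WT cells had 51.4 ± 4.37 CPM per kb of P2rx4, 38.6 ± 12.6 of P2ry6, 16.3 ± 1.35 of P2rx7, 9.08 ± 3.31 of Gpr34, 4.90 ± 0.499 of P2ry2 and 4.81 ± 0.782 of P2ry12 (SD, n = 3). P2ry13, P2ry14 and Adora2b followed at 2.14 ± 0.344, 1.54 ± 0.229 and 1.43 ± 0.768, and Adora2a was last at 0.0402 ± 0.0212. The neighbours P2ry2 and P2ry12, and P2ry14 and Adora2b, lay within their SDs of each other. With LPS Gpr34 was last in all 3 genotypes, at 0.391 ± 0.110 CPM per kb in WT, and Adora2a reached 3.89 ± 0.523 in WT and 8.50 ± 1.81 in KO. The deposited lengths of P2rx4, P2rx7, P2ry14, P2ry6 and P2ry2 are shorter than the union of their exons in GENCODE M21. With the union lengths, P2ry6 (26.0 ± 8.47 CPM per kb) stood above P2rx4 (19.8 ± 1.68) in resting WT and P2rx7 fell to 5.24 ± 0.433, below Gpr34.

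Of 9 other purinergic receptors, 3 had enough counts to be tested, and P2rx1, P2rx2, P2rx3, P2rx5, P2ry4 and Adora1 had at most 10 counts in any library. With LPS 1 of the 3 rose and 2 fell in KO, and 1 rose and 1 fell in 3F. P2ry1, an ADP receptor, fell with LPS, at log2 fold changes of −1.65 ± 0.25 in KO (adjusted p = 0.000158) and −1.99 ± 0.25 in 3F (adjusted p = 2.09e-05). Adora3, the Gi-coupled adenosine receptor, rose by 1.91 ± 0.42 in KO (adjusted p = 0.00305) and 1.93 ± 0.45 in 3F (adjusted p = 0.00438). Of 7 other receptors of the branch of P2ry12 and Gpr34, Gpr183, which responds to oxysterols, was the 1 that could be tested. It fell with LPS, at −2.25 ± 0.25 in KO (adjusted p = 6.01e-06) and −1.44 ± 0.24 in 3F (adjusted p = 0.000316). With LPS Gpr183 was lower in KO than in WT, by −0.98 ± 0.25 (adjusted p = 0.0322).

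The enzymes of nucleotide and nucleoside breakdown and turnover, some of which act inside cells, moved in both directions. The counts of this list and of those that follow stand beside an LPS response that called 14.3% of all genes higher and 12.6% lower in KO and 17.2% and 14% in 3F, and 9.4% called between KO and WT at rest. Of 19 such genes 12 were tested, and 3 rose and 4 fell with LPS in KO, as 4 rose and 4 fell in 3F. Entpd1 (CD39), which strips phosphates from ATP and ADP, fell, at −2.56 ± 0.27 in KO (adjusted p = 3.44e-06) and −2.49 ± 0.26 in 3F (adjusted p = 4.3e-06). Nt5e (CD73), which makes adenosine from AMP, fell, at −2.70 ± 0.56 in KO (adjusted p = 0.00191) and −2.16 ± 0.55 in 3F (adjusted p = 0.00759). Cd38, an enzyme that consumes NAD, had 0 to 7 counts in resting libraries of any genotype and with LPS averaged 46.0 ± 25.6 CPM in WT libraries, 120 ± 11.7 in the KO and 52.2 ± 6.19 in 3F (SD, n = 3). With LPS Entpd1 was lower in KO than in WT by −1.15 ± 0.26 (adjusted p = 0.0196) and Cd38 was higher by 1.39 ± 0.36 (adjusted p = 0.0349). At rest 3 of the 12 were higher and 2 lower in KO than in WT, among them Enpp4 (2.99 ± 0.74, adjusted p = 0.0187) and Pnp (2.20 ± 0.55, adjusted p = 0.0193). Without resting KO replicate 3 Enpp4 differed by 1.17 (adjusted p = 0.126) and Pnp by 0.64 (adjusted p = 0.13), and both calls were also lost without any 1 resting WT library (adjusted p = 0.0597 to 0.077 for Enpp4 and 0.0588 to 0.0825 for Pnp).

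Of 11 genes listed for nucleotide release, nucleoside transport and UDP-glucose metabolism 10 were tested, and 2 rose and 1 fell with LPS in KO, as 3 rose in 3F. Gja1, which forms connexin hemichannels, rose by 3.81 ± 0.37 in KO (adjusted p = 1.4e-06) and 2.90 ± 0.41 in 3F (adjusted p = 7.1e-05). Gja1 in KO with LPS exceeded WT by 1.49 ± 0.31 (adjusted p = 0.011). Of 6 enzymes of lysophospholipid metabolism, not all of them specific to lysophosphatidylserine, 4 were tested, and 3 fell in KO and 2 in 3F. Pnpla7 fell, at −1.45 ± 0.19 in KO (adjusted p = 3.1e-05) and −1.58 ± 0.19 in 3F (adjusted p = 1.63e-05). Of 18 G protein and cyclic AMP partners of these receptors 16 were tested, and 2 rose and 3 fell with LPS in KO, as 6 rose and 1 fell in 3F. Pde4b, a phosphodiesterase that degrades cyclic AMP, rose by 1.73 ± 0.31 in KO (adjusted p = 0.000572) and 2.03 ± 0.32 in 3F (adjusted p = 0.000195). The median log2 fold change of the tested genes of these lists in the KO response was −0.22 for the breakdown enzymes and 0.19 for the list of release and transport. It was −0.43 for the lysophospholipid enzymes and −0.02 for the signalling partners, beside 0.02 for all genes.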

How the data were processed

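RNA of 18 cultures was sequenced from ribosomal RNA-depleted, directional libraries. The authors trimmed reads with cutadapt 1.8.3, removed ribosomal DNA reads and aligned the rest to mm10 with HISAT2 2.1.0, and they deposited raw counts per protein-coding gene (Gencode M15) made with featureCounts 1.5.3, by strand and with a minimum mapping quality, so that reads shared with near-identical sequence are left out. The deposited gene lengths are in bases, and how they were set is not given in the sources used here.

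Counts were analysed as deposited in edgeR 4.0.16 (R 4.3.3): filterByExpr over the 6 groups, TMM, and one quasi-likelihood fit of all 18 libraries without covariates. All tests were two-sided. Benjamini-Hochberg adjustment ran over 11357 genes, and an adjusted p under 0.05 was called. Each SE is the absolute log2 fold change over the root of the F statistic, and an interval of a log2 fold change is 1.96 SE on each side. With 3 libraries against 3, an exact permutation test could not go below p = 0.1. No label says which libraries come from the same mouse, so p-values measure the spread between these cultures. No replicates were close enough to be 1 library deposited again.

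The 10 genes, the gene lists and the tests were chosen with earlier results of these data known. The rule for names took all 10 genes, up to 3 called genes of a context list with the largest change in the LPS response of KO or 3F or in KO against WT, and the 5 genes most like Gpr34. 3′ UTRs came from GENCODE M21, promoters and miRNA from RefSeq. The procedure was tested on simulated data for the LPS response in KO, on 11264 genes, and recovered 74% of 2-fold and 96% of 4-fold changes with 5 false calls. The simulated counts followed the fitted group means and the trend of the spread that the test itself assumes. They held no library that stood apart, so these shares need not hold for the real libraries. DESeq2 1.42.0, limma-voom (limma 3.58.1) with sample quality weights, other scaling and filters, the compared groups alone, replicate blocks and leaving out libraries were alternatives. Leaving out the 2 libraries that stood apart was chosen after seeing the data. Precision is set by the total counts, 4071084 to 19818043 per library, and counting intervals do not cover variation between cultures or amplification, and no use of molecular identifiers is described.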

Additional observations from a re-analysis of the deposited data

Results flagged for a closer look

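P2ry6 was flagged because its resting and LPS libraries separated in opposite directions in KO and in 3F. How many of all genes did so was not counted. In KO the libraries with LPS (97.1, 97.2 and 79.7 CPM) all lay below the resting ones (111, 106 and 108 CPM), a log2 fold change of −0.25 ± 0.27. In 3F they (96.8, 93.3 and 90.5 CPM) all lay above the resting ones (80.4, 76.7 and 29.5 CPM), a log2 fold change of 0.57 ± 0.27. Neither response passed the test in edgeR (adjusted p = 0.538 and 0.122), and the difference between the KO and 3F responses was not tested. Without resting 3F replicate 3 the 3F value was 0.21.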

How the results depend on the processing

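Of 1352 values of the 10 genes recomputed under the alternatives, 1200 kept their direction and their side of the threshold, 43 passed the threshold where they had not, 35 no longer passed it, and 74 changed sign without a call in either fit. Gpr34 in resting KO against WT turned from −0.23 to 0.38 with limma-voom and to 0.30 without the 2 resting libraries that stood apart, and ran from −0.65 to 0.28 over the libraries left out. With LPS it ran from −0.02 to 0.38. The LPS response in KO of P2ry14 ran from −0.02 to 1.31 over the libraries left out, and that of P2ry2 turned to −0.03 without the 2 libraries. The cause was not tested.

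Receptors called in KO against WT with LPS numbered 1, but 2 without a filter on low counts, 2 with DESeq2, 4 with limma-voom, 2 with the compared groups alone and 4 without the 2 libraries (0 to 2 over libraries left out). For KO against WT at rest the 3 became 1 with the groups alone, 2 with the replicate block and 4 without the 2 libraries (1 to 3 over libraries left out). For KO against 3F at rest the 3 became 5 with DESeq2, 6 with limma-voom, 0 with the groups alone and 1, P2rx7, without the 2 libraries (2 to 4). With LPS the 2 became 5 with limma-voom, 4 with the groups alone and 4 without the 2 libraries (1 over every library left out). In the LPS response the KO count of 1 became 3 with limma-voom, 2 with the groups alone and 3 without the 2 libraries (1 to 3), and the 3F count of 4 became 6 with limma-voom, 2 of them lower, and 5 without the 2 libraries, 1 of them lower (3 to 4).

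Counts over all genes moved as follows. With no filter, 3F against WT at rest went from 0 to 1 and the KO interaction from 1 to 2. With DESeq2, KO against WT with LPS went from 544 to 983, KO against 3F with LPS from 441 to 801, 3F against WT from 0 to 2 at rest and from 1 to 2 with LPS, and the KO interaction to 23. With limma-voom the LPS response gave 6073 genes in KO (3059 in edgeR) and 5478 in 3F (3546), KO against WT 2259 at rest (1067) and 1777 with LPS, KO against 3F 2916 at rest (1464) and 1842 with LPS, 3F against WT 2 at rest, and the KO interaction 57. With the groups alone, KO against WT gave 396 at rest and 1031 with LPS, KO against 3F 16 at rest and 1661 with LPS, 3F against WT 0 with LPS, and the KO interaction 0. Without the 2 libraries, the LPS response in KO gave 5044, KO against WT 1669 at rest and 1618 with LPS, KO against 3F 749 at rest and 1387 with LPS, 3F against WT 1 at rest, and the KO interaction 33. Leaving out 1 library gave 2154 to 4040 in the LPS response of KO and 2490 to 3594 in that of 3F, 392 to 1047 at rest and 180 to 416 with LPS for KO against WT, 735 to 1811 and 142 to 311 for KO against 3F, 0 to 1 for 3F against WT in each state, and 0 to 4 for the KO interaction.

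Blocks by replicate number changed 1 call of the 10 genes, Adora2a in resting KO against WT (2.78, adjusted p = 0.0669). For comparisons between genotypes, as here, the block shared each number across genotypes. For LPS responses and interactions the block was the number within a genotype, and it left 0 genes in the KO interaction. Same-numbered resting and LPS libraries of a genotype correlated in their deviations at r from 0.028 to 0.318, all positive, and differently numbered ones at −0.268 to 0.121. The column names of the counts carry the same letter for both libraries of a number. No label states that a shared number or letter marks the same mouse, and not all same-numbered pairs passed 0.1. The main fit therefore did not use the pairing. Adora2a at rest and Gpr34 with LPS rest on few counts, which limits their fold changes.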
